A study of Mus musculus with 27 samples.

Results

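Oxidative phosphorylation subunits are the proteins that make up the 5 enzyme complexes of the mitochondrial inner membrane, and their transcripts were followed here in hepatic stellate cells (HSCs) of mice exposed to carbon tetrachloride (CCl4). The genes were taken by symbol from the deposited count table, without use of their values: protein-coding genes with the classical names of complex I (Nduf), complex II (Sdh), complex III (Uqcr), complex IV (Cox4 to Cox8) and complex V (Atp5) subunits, and the protein-coding genes of the mitochondrial genome. The rule found 96 of the 53379 genes in the table, 83 on nuclear chromosomes and 13 on the mitochondrial genome, and 1 further symbol was left out because it is annotated as a pseudogene. Of the nuclear genes, 35 belong to complex I, 4 to complex II, 8 to complex III, 19 to complex IV and 17 to complex V. Of the mitochondrial genes, 7 belong to complex I, 1 to complex III, 3 to complex IV and 2 to complex V. Ndufa4 was counted with complex IV, to which it is now assigned despite its symbol. Cox7a2l was counted with complex IV and Atp5s with complex V because of their symbols, although Cox7a2l assembles supercomplexes and Atp5s is known as coupling factor B.

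All mice were male Balb/c, and HSCs were sorted from their livers by ultraviolet-positive retinoid droplets and sequenced without culture, as bulk RNA. The 4 healthy libraries came from non-injected mice of 10 to 12 weeks. Acute injury was 1 intraperitoneal injection of CCl4 (0.5 µL per g body weight, in mineral oil) at 10 to 12 weeks, with HSCs taken 24 h (n = 3), 72 h (n = 4) or 7 d (n = 4) later. Chronic injury was 8 injections, given semi-weekly over 4 weeks from 8 to 10 weeks of age, with HSCs taken 24 h, 72 h or 14 d after the last one (n = 4 each). The healthy mice received no oil, so the oil and CCl4 cannot be told apart. An ultraviolet gate takes HSCs by their retinoid and leaves out those without it.

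The 5 complexes turn the energy of nutrients into ATP. Complexes I and II take electrons from NADH and succinate, complex III passes them by cytochrome c to complex IV, which reduces oxygen, and complexes I, III and IV pump protons that drive the ATP synthase, complex V. A few core subunits are encoded on the mitochondrial genome and transcribed inside the organelle as long precursors, whereas all other subunits, and the whole of complex II, are nuclear genes whose proteins are imported. Quiescent HSCs store retinoid, and cells that become activated after injury divide and make matrix.

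Libraries held 6314801 to 13052838 counts, and 8 of the 27 were shallower than the others. Those 8 held at most 7580709 counts, against at least 10792560 in the rest, and they were chronic 24 h replicates 1 and 2, chronic 72 h replicates 1 and 2 and all 4 chronic 14 d libraries, so that for chronic 14 d the depth and the group cannot be told apart. All 15 HSC markers, such as Lrat, Reln and Des, were found, which does not by itself test the label of the cells. They summed to between 15112 and 50655 CPM in each library, CPM being counts scaled to the same total in every library. That sum had a median of 46701 CPM in healthy HSCs and of 17135 CPM at chronic 24 h. Dcn (16700 CPM) and Ecm1 (8707 CPM) had the highest healthy means. From healthy to chronic 24 h the mean of Vipr1 went from 3724 to 382 CPM and that of Lrat from 1697 to 1036 CPM. Of the HSC markers only Des and Pdgfrb had higher means at chronic 24 h. The sum of 15 hepatocyte markers ranged from 97.4 to 13428 CPM. Its medians were 1260 CPM in healthy, 148 CPM in acute 24 h, 1643 CPM in chronic 24 h, 5300 CPM in chronic 72 h and 4562 CPM in chronic 14 d libraries. The sum of 14 macrophage markers had medians of 401 CPM in healthy and 212 CPM in acute 24 h libraries. At acute 7 d the median was 7178 CPM, and Lyz2 alone had a mean of 5439 CPM. Marco alone of the 14 had no count in healthy libraries, where Clec4f had a mean of 113 CPM and Lyz2 of 55.8 CPM. Hepatocyte, macrophage and other cells carry the same respiratory subunits as HSCs, so that in bulk RNA a change in the share of a cell type and a change in RNA per cell cannot be told apart.

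Per kilobase of exon, mitochondrially encoded genes held the 9 highest ranks of the 96 in healthy HSCs. mt-Nd6 (168 CPM per kb), mt-Nd5 (155), mt-Nd4l (62.5) and mt-Nd3 (47.2 CPM per kb) lay below the highest nuclear gene. The highest mean levels were those of mt-Atp6 (869 CPM per kb), mt-Co1 (847), mt-Co3 (825), mt-Cytb (808) and mt-Nd1 (740 CPM per kb). Of these, mt-Atp6, mt-Co1 and mt-Co3 have copies on chromosome 1 that also carried counts, as described below. Their order against mt-Cytb and mt-Nd1 therefore depends on how reads were placed. The median over the mitochondrial genes lay between 258 and 509 CPM per kb in the 4 healthy libraries, and the median over the nuclear genes between 8.92 and 15.3 CPM per kb, without overlap. Among nuclear subunits Cox6a1 led with 190 CPM per kb, before Cox8a (166 CPM per kb), Atp5b, the catalytic beta subunit of the ATP synthase (114 CPM per kb), and Sdhd, a membrane anchor of complex II (84.7 CPM per kb).

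Where a subunit has several isoforms, a single form had the highest level in healthy HSCs, and the others had low or no counts. Cox6b1 and Cox6b2 did not keep this order, with 2.48 and 0.45 CPM per kb in healthy HSCs and 0 and 1.35 at chronic 24 h. Cox4i1 stood at 72.5 CPM per kb in healthy HSCs, against 1.94 for Cox4i2, the form linked to lung and low oxygen. Cox6a1 and Cox8a were far above their muscle forms Cox6a2 and Cox8b and the testis form Cox8c, all with a mean of 0 CPM per kb in healthy HSCs. Cox7a2 (32.8 CPM per kb) and Cox7b (15.6 CPM per kb) likewise stood beside Cox7a1 and Cox7b2 at 0. Of the 3 genes for the c ring of the ATP synthase, Atp5g3 gave 26.9 CPM per kb, Atp5g1 0.34 and Atp5g2 0.21 CPM per kb. Cox8b, Cox6a2, Cox7b2, Cox8c and Cox7a1 did not pass the filter on low counts, which left 78 of the 83 nuclear and 13 of the 13 mitochondrial genes for the tests.

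Several nuclear subunit genes had counts that dropped to 0 in single libraries. Of the 83 nuclear genes, 9 had a mean count of at least 20 and yet a count of 0 in 1 or more of the 27 libraries, and 0 of the 13 mitochondrial genes did. Cox6b1, a widely expressed subunit at the outer face of complex IV, was listed at 0 in 19 of the 27 libraries. Its other libraries gave 7.02 CPM in healthy replicate 1, 55.9, 56.4 and 6.37 CPM at acute 24 h, 69.0 CPM in acute 72 h replicate 2, 43.4 CPM in acute 7 d replicate 2, 74.8 CPM in chronic 72 h replicate 4 and 54.6 CPM in chronic 14 d replicate 2. Ndufa1 (16 libraries at 0), Ndufb4 (7 libraries), Atp5mpl (6), Uqcr11 (3), Cox6b2, Ndufc1, Uqcrc2 and Atp5h (1 each) were of the same kind. Genes whose values jump in this way within a group stayed in the tests. The counts of calls below include Ndufa1, Ndufc1 and Cox6b2 from among them.

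The mean share of all counts in nuclear subunits was above the healthy mean in all 6 injury groups. The 4 healthy libraries gave 0.372%, 0.307%, 0.285% and 0.381%, and the 3 acute 24 h libraries 0.523%, 0.510% and 0.456%, all above the healthy ones. The mean was 0.336% ± 0.0475 (SD, n = 4) in healthy, 0.496% ± 0.0359 (n = 3) at acute 24 h, 0.478% ± 0.0526 at acute 72 h, 0.405% ± 0.0274 at acute 7 d, 0.421% ± 0.05 at chronic 24 h, 0.422% ± 0.0755 at chronic 72 h and 0.411% ± 0.0842 at chronic 14 d (n = 4 each). The ranges of acute 72 h and healthy libraries did not overlap (lowest 0.402%), while those of acute 7 d (lowest 0.380%) and of the 3 chronic groups did.

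The mitochondrially encoded subunits followed another order, with the lowest mean at chronic 24 h and the highest at chronic 14 d. Healthy libraries gave 0.687%, 0.449%, 0.499% and 0.628% of all counts, chronic 24 h libraries 0.591%, 0.482%, 0.544% and 0.505%, and chronic 14 d libraries 0.759%, 1.13%, 1.02% and 0.826%. All 4 chronic 14 d libraries were thus above all healthy and all chronic 24 h libraries. The means were 0.566% ± 0.111 in healthy, 0.701% ± 0.0796 at acute 24 h (n = 3), 0.792% ± 0.214 at acute 72 h, 0.586% ± 0.116 at acute 7 d, 0.530% ± 0.0478 at chronic 24 h, 0.693% ± 0.193 at chronic 72 h and 0.934% ± 0.172 at chronic 14 d (SD, n = 4 elsewhere). Within the shallower libraries alone the 2 chronic 24 h values of 0.482% and 0.591% still lay below the 4 chronic 14 d values.

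**Figure D1:**
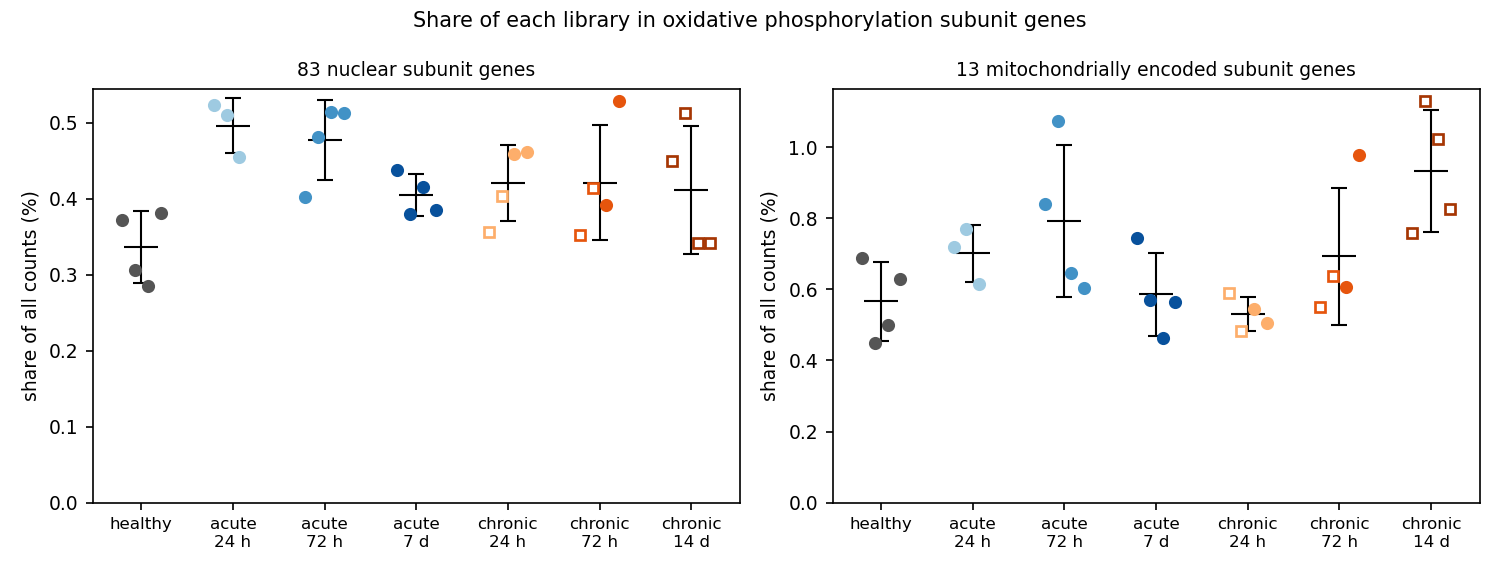
Share of all counts of a library (%, y axis from 0) in the 83 nuclear and the 13 mitochondrially encoded subunit genes, by group, with filled circles for the deeper and open squares for the shallower libraries and bars for mean ± SD. Nuclear shares of acute 24 h and acute 72 h libraries lie above all healthy ones, and the mean mitochondrial share is highest at chronic 14 d (0.759% to 1.13%), where the range overlaps those of acute 24 h, acute 72 h and chronic 72 h.

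The injury groups were compared with healthy HSCs gene by gene, and a gene was called at an adjusted p below 0.05 (edgeR's quasi-likelihood test, Benjamini-Hochberg over 18758 genes). At acute 24 h, 18 of the 78 nuclear subunits were called higher and 2 lower, while 15.5% of all genes tested were called higher and 18.1% lower. Their median log2 fold change was 0.52, against -0.12 over all genes, and 63 of 78 had a positive value. At acute 72 h 9 were called higher and 0 lower (background 13.1% higher and 8.81% lower), with a median of 0.40 against 0 over all genes. At acute 7 d 3 were called higher and 0 lower (background 13.1% and 10.6%), and the median was 0.18. Counts of 0 lower compare with 2 at an unadjusted p below 0.05 and 1 by DESeq2 at acute 72 h, and 0 by both at acute 7 d. The shares of subunits called higher at 72 h and 7 d were thus near or below the background, while their medians stayed above 0.

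After chronic injury fewer nuclear subunits were called than the background share would give. At chronic 24 h 7 of 78 were called higher and 0 lower, against 17.1% and 14% of all genes, and the median log2 fold change was 0.19 (0 lower also at an unadjusted p below 0.05 and by DESeq2). At chronic 72 h 5 were called higher and 1 lower, against 11% and 9%, with a median of 0.28. At chronic 14 d only Cox5a was called, higher, against 5.12% of all genes higher and 3.49% lower, with a median of 0.11 (1 lower at an unadjusted p below 0.05 and 0 by DESeq2). The all-gene medians were -0.03, 2.9e-05 and -0.03. Counts moved with single libraries here too: 7 at chronic 24 h became 4 without healthy replicate 2 or chronic 24 h replicate 3 and 3 without healthy replicate 3, 6 at chronic 72 h became 3 without healthy replicate 2 and 2 without chronic 72 h replicate 4, and 1 at chronic 14 d became 2 without healthy replicate 4.

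Between injuries the nuclear subunits leaned lower at chronic 24 h than at acute 24 h. In that comparison 0 were called higher and 2 lower, against 14% and 7.32% of all genes, and the median was -0.27 with 19 of 78 values positive (3 higher at an unadjusted p below 0.05 and 1 by DESeq2). Between chronic 14 d and chronic 24 h 2 were called higher and 2 lower, against 10.1% and 12.9%. The median of that comparison was -0.08 and became 0.08 with libraries scaled by total count alone, where 3 were called higher and 1 lower. Without chronic 24 h replicate 3 1 was called each way.

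Across the 6 comparisons with healthy HSCs, which share the same 4 control libraries, 23 nuclear subunits were called higher at least once, 3 were called lower (Sdha, Atp5s and Ndufb7) and 53 were never called, Atp5s being in both of the first counts. A positive log2 fold change in 6 of 6 groups was seen for 28 of the 78. No share over all genes is given for these counts across groups, so they cannot be set against a background. Cox5a was called in 6 groups, Cox7b in 4, and Atp5b, Ndufa9 and Sdhd in 3 each. The counts depended on single libraries: leaving out each library in turn gave 15 to 21 called at acute 24 h, but 4 to 14 at acute 72 h (4 without healthy replicate 2, 5 without healthy replicate 3 or acute 72 h replicate 3, 14 without healthy replicate 4 or acute 72 h replicate 1). At acute 7 d the 3 calls became 1 without healthy replicate 2 or 3 or acute 7 d replicate 1, 3 or 4, and 8 without healthy replicate 4. With the hepatocyte marker score as a term in the model, 11 were called at acute 24 h, where hepatocyte markers were lowest. The summed markers were 97.4 to 396 CPM in acute 24 h and 770 to 5352 CPM in healthy libraries, without overlap. At acute 24 h the score therefore goes with the group, and a call lost with this term cannot be assigned to either.

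**Figure D2:**
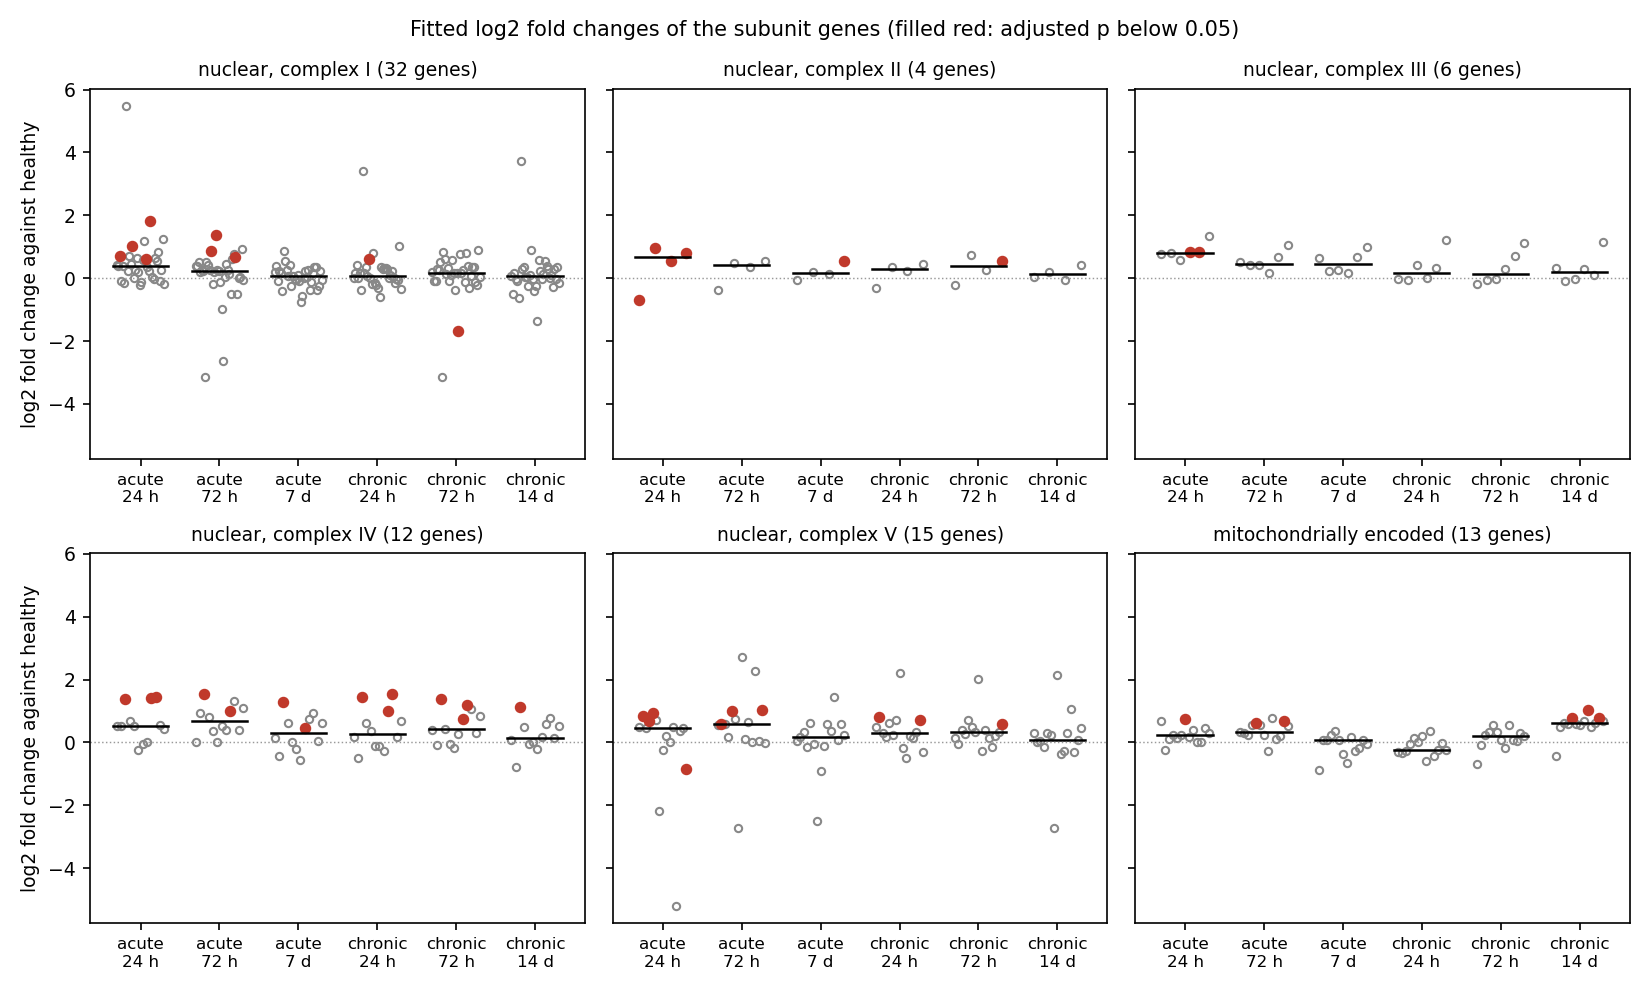
Log2 fold change against healthy HSCs (y axis) of each tested subunit by injury group (x axis). There is 1 panel for the nuclear subunits of each complex and 1 for the mitochondrially encoded genes. Red filled points mark adjusted p below 0.05 and black lines mark medians, and the 9 genes with isolated zeros are left out. Red points are most frequent at acute 24 h, and in the complex IV panel Cox5a is red in all 6 groups.

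Complex I, the NADH dehydrogenase, gave 6 subunits called higher of 35 at acute 24 h (median log2 fold change 0.38), 3 at 72 h (0.23), 0 at 7 d (0.06), 2 at chronic 24 h (0.15), 0 at chronic 72 h (0.18) and 0 at chronic 14 d (0.07), and 1, Ndufb7, was called lower at chronic 72 h. Of all genes, 15.5%, 13.1%, 13.1%, 17.1%, 11% and 5.12% were called higher in that order, and 9% were called lower at chronic 72 h. The counts of complex I were near or below these shares. Ndufa9, an accessory subunit at the junction of the arms of the complex, had 12.4, 13.8, 9.61 and 17.7 CPM in healthy libraries. It had 29.7, 29.3 and 22.1 CPM at acute 24 h, and 27.9, 27.1, 23.9 and 26.4 CPM at acute 72 h. All 7 of these values were above the healthy range. The log2 fold changes of Ndufa9 were 1.02 ± 0.206 (SE, edgeR adjusted p = 0.0005) at acute 24 h and 0.87 ± 0.194 (adjusted p = 0.00223) at 72 h. At chronic 24 h it had 14.4, 23.7, 22.6 and 20.8 CPM, which overlapped healthy (0.60 ± 0.194, adjusted p = 0.0208). That call was lost in 6 of 18 alternatives, among them the fits without healthy replicate 1 or 3 or without chronic 24 h replicate 2 or 3. By chronic 14 d Ndufa9 was back at 16.2, 18.7, 12.8 and 13.8 CPM.

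The catalytic core subunits Ndufv1 and Ndufs1, which hold the flavin and iron-sulphur clusters of complex I, were not called in any of the 6 groups. The log2 fold changes of Ndufv1 ran from -0.26 to 0.27, and those of Ndufs1 from -0.13 to 0.33. Ndufs6, a small subunit of the matrix arm, had 26.0, 18.3, 14.5 and 28.0 CPM in healthy and 29.1, 39.6, 38.5 and 43.0 CPM in acute 72 h libraries, and its log2 fold change was 0.68 ± 0.231 (edgeR adjusted p = 0.0364). Ndufb2, a membrane-arm subunit, gave 1.37 ± 0.462 (adjusted p = 0.0354) at the same time, from 9.56, 3.52, 0.953 and 11.2 CPM to 17.5, 15.6, 29.0 and 8.44 CPM. The ranges of Ndufs6 did not overlap and those of Ndufb2 did. Each of these 2 calls was lost in 7 of 18 alternatives, that of Ndufs6 without healthy replicate 2 or 3 or acute 72 h replicate 2, 3 or 4, and that of Ndufb2 without healthy replicate 2 or 3 or acute 72 h replicate 1 or 3.

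Other calls in complex I rested on values that jumped between libraries. Ndufb7, a membrane-arm subunit, had 28.6, 21.1, 3.49 and 12.3 CPM in healthy and 3.24, 9.20, 5.01 and 4.76 CPM in chronic 72 h libraries (log2 fold change -1.69 ± 0.588, edgeR adjusted p = 0.0453), and this call was lost in 11 of 18 alternatives, including those without healthy replicate 1 or 2 or without chronic 72 h replicate 1, 3 or 4. Ndufc1 had 15.1, 0.816 and 15.0 CPM at acute 24 h against 0.644 to 1.23 CPM in healthy HSCs, so that 1 of the 3 libraries was at the healthy level (3.39 ± 1.18, adjusted p = 0.029, lost without any one of the 4 healthy libraries or without acute 24 h replicate 1 or 3). Ndufa1 was listed at 0 in the 4 healthy libraries, where 3 counts would be 0.238 to 0.278 CPM. It had 9.62, 18.4 and 8.11 CPM at acute 24 h (adjusted p = 0.0187) and 4.46, 5.94, 13.2 and 6.29 CPM at chronic 24 h (adjusted p = 0.0284, lost without any one healthy library or without chronic 24 h replicate 3). Ndufa1 was at 0 in all acute 7 d libraries, and the other groups held both zeros and values, up to 12.5 CPM.

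Complex II, succinate dehydrogenase, was the complex in which every subunit was called at acute 24 h, 3 higher and 1 lower. Of all genes, 15.5% were called higher and 18.1% lower at that time. Sdha, the flavoprotein that oxidises succinate, had 191, 157, 214 and 191 CPM in healthy HSCs. At acute 24 h it had 109, 115 and 124 CPM, below all healthy libraries, and by chronic 14 d 257, 246, 202 and 169 CPM. Its log2 fold change was -0.70 ± 0.185 (edgeR adjusted p = 0.00513) at acute 24 h, and this was not called with the hepatocyte score in the model. The iron-sulphur subunit Sdhb moved the other way, from 14.9, 18.3, 12.8 and 16.3 CPM to 31.7, 31.6 and 27.2 CPM (0.96 ± 0.286, adjusted p = 0.0114), and was also not called with the hepatocyte score. The 2 membrane anchors rose at acute 24 h. Sdhc had 99.0, 88.1, 102 and 106 CPM in healthy and 146, 162 and 129 CPM in acute 24 h libraries (0.56 ± 0.168, adjusted p = 0.0115, lost without acute 24 h replicate 2 and with the hepatocyte score). Sdhd had 106, 91.5, 85.8 and 133 CPM in healthy and 200, 196 and 146 CPM in acute 24 h libraries (0.80, called in all 17 alternatives). At acute 7 d and chronic 72 h Sdhd was called with 0.56 each (adjusted p = 0.0387 and 0.0443), and each of these calls was lost in 8 of 18 alternatives, among them those without healthy replicate 1, 2 or 3, without acute 7 d replicate 1, 3 or 4 and without chronic 72 h replicate 2 or 4. Level differences between the 4 genes are not given here, since gene length enters the CPM.

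Complex III, the cytochrome bc1 complex, had a positive log2 fold change in 8 of 8 nuclear subunits at each acute time, with medians of 0.81, 0.60 and 0.55, but 2, 0 and 0 were called. Of all genes, 15.5%, 13.1% and 13.1% were called higher at these times. In the chronic groups the medians were 0.22, -0.02 and 0.31, and 0 were called. There, 17.1%, 11% and 5.12% of all genes were called higher and 14%, 9% and 3.49% lower. Uqcrfs1, the Rieske iron-sulphur protein, had 125, 101, 96.9 and 138 CPM in healthy and 228, 218 and 172 CPM in acute 24 h libraries, without overlap. At chronic 24 h it had 112, 125, 123 and 105 CPM, within the healthy range. The log2 fold change of Uqcrfs1 was 0.84 ± 0.197 (edgeR adjusted p = 0.00184) at acute 24 h, -0.00 at chronic 24 h and -0.84 ± 0.197 (adjusted p = 0.0034) between chronic and acute 24 h, the last called in all 17 alternatives. Uqcrh, the hinge protein, was the other call at acute 24 h, with 0.83, lost without healthy replicate 2 or 3 or any one acute 24 h library. Uqcrc1, a large core subunit, was not called in any group, with values between -0.04 and 0.57.

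Complex IV, cytochrome c oxidase, held the only subunit called in all 6 groups, Cox5a. At acute 72 h 14 of 14 tested subunits had a positive log2 fold change (median 0.87), and 4, 3, 2, 3, 3 and 1 were called higher at acute 24 h, 72 h and 7 d and at chronic 24 h, 72 h and 14 d, with 0 called lower. Of all genes, 15.5%, 13.1%, 13.1%, 17.1%, 11% and 5.12% were called higher in that order. The shares called lower were 18.1%, 8.81%, 10.6%, 14%, 9% and 3.49%. Cox5a, which sits on the matrix side of the enzyme, had 7.63, 13.2, 12.2 and 8.38 CPM in the healthy libraries. It had 24.0, 32.4 and 24.2 CPM at acute 24 h, 29.1, 34.3, 31.6 and 34.7 CPM at 72 h, and 36.5, 26.5, 23.8 and 23.0 CPM at 7 d. After chronic injury it had 21.2, 27.6, 31.1 and 33.6 CPM at 24 h, 22.4, 34.0, 25.3 and 34.5 CPM at 72 h, and 24.0, 39.0, 18.0 and 20.9 CPM at 14 d. All 23 libraries from injured mice were above all 4 healthy ones. Its log2 fold changes were 1.38, 1.54 ± 0.241, 1.296 ± 0.24, 1.45 ± 0.241, 1.37 ± 0.241 and 1.13 ± 0.241 in that order, the largest adjusted p being 0.00406 at chronic 14 d (edgeR). The call at chronic 14 d was lost when only healthy and chronic 14 d libraries were fitted and with the hepatocyte score in the model, and the others were called in every alternative.

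Cox5a (ENSMUSG00000000088, chr9:57521274-57532426, plus strand, GRCm38) shares 269 of its 2101 exonic bases, 12.8%, with Gm26631, a lncRNA transcribed from the opposite strand at the same promoter. Gm26631 had a mean of 14.4 CPM in healthy libraries (0 to 23.9 CPM) and means of 32.3 to 43.1 CPM in the injury groups. Its log2 fold changes of 1.01 to 1.60 were not called (adjusted p = 0.0553 to 0.328). Reads of the shared bases cannot be told apart without strand. Such an overlap is not particular to Cox5a, since 32 of the 96 subunit genes share exonic bases with a gene of at least 1 CPM. On the opposite strand, Ndufb2 shares 146 of 5628 bases with Braf, Ndufs6 30 of 898 with Mrpl36 and Cox4i1 154 of 1550 with Emc8.

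The other complex IV calls were of small subunits. Cox7b, an accessory subunit on the X chromosome, had 19.6, 16.9, 9.77 and 29.4 CPM in healthy, 45.7, 48.9 and 57.7 CPM in acute 24 h and 23.8, 52.4, 43.1 and 66.5 CPM in chronic 72 h libraries. Its log2 fold change was 1.43 ± 0.336 (edgeR adjusted p = 0.00193) at acute 24 h, 0.99 at acute 72 h and chronic 24 h and 1.18 ± 0.316 (adjusted p = 0.00959) at chronic 72 h. Only at acute 24 h did its values clear the healthy range, and the 3 later calls were lost in 3 to 5 alternatives each, among them those without healthy replicate 2 or 3, acute 72 h replicate 2 or 3, chronic 24 h replicate 3 or chronic 72 h replicate 4. Cox7c had 1.93, 6.21, 4.60 and 21.3 CPM in healthy libraries, so that a single library carried most of the healthy mean. It had 25.7, 21.7 and 23.7 CPM at acute 24 h and 10.7, 26.5, 41.1 and 21.4 CPM at chronic 24 h (1.46 ± 0.551, adjusted p = 0.0435, and 1.53 ± 0.523, adjusted p = 0.0287). These calls of Cox7c were lost without healthy replicate 1, 2 or 3, without any one acute 24 h library or without chronic 24 h replicate 2 or 3.

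Cox7a2l, which joins complexes III and IV into supercomplexes, followed another course. It was called higher than in healthy HSCs at acute 7 d and chronic 72 h, and not in the other groups, chronic 14 d among them. It had 50.1, 35.4, 39.3 and 50.4 CPM in healthy, 39.6, 35.7, 34.0 and 36.7 CPM in chronic 24 h and 75.8, 74.5, 64.0 and 102 CPM in chronic 72 h libraries. The chronic 72 h values of Cox7a2l were above all healthy ones (0.74 ± 0.158, edgeR adjusted p = 0.0018, called in all 18 alternatives). At acute 7 d it had 66.7, 58.3, 66.0 and 64.7 CPM (0.45 ± 0.158, adjusted p = 0.0433, called in 9 of 18 alternatives and lost without healthy replicate 2 or 3 or acute 7 d replicate 1, 3 or 4). From chronic 24 h to chronic 14 d the change was 0.45 ± 0.159 (adjusted p = 0.0424), also called in 9 of 18 alternatives and lost without chronic 24 h replicate 2, 3 or 4 or chronic 14 d replicate 1 or 2. Cox6b2, known from testis, was low at 1.14, 0.371, 0 and 0.483 CPM in healthy libraries and had 3.63, 3.18 and 3.15 CPM at acute 24 h and 2.60, 2.55, 8.37 and 9.40 CPM at acute 72 h, both called higher. Cox4i1, the largest nuclear subunit of the complex, was not called in any group, with log2 fold changes of 0.02 to 0.53.

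Complex V, the ATP synthase, had 3, 3, 0, 2, 1 and 0 of 17 nuclear subunits called higher in the 6 groups, and 1 called lower at acute 24 h. Of all genes, 15.5%, 13.1%, 13.1%, 17.1%, 11% and 5.12% were called higher in these groups, and 18.1% were called lower at acute 24 h. Atp5b had 508, 413, 490 and 521 CPM in healthy libraries. It had 997, 891 and 710 CPM at acute 24 h, 638, 670, 994 and 870 CPM at acute 72 h and 832, 820, 956 and 787 CPM at chronic 24 h, all above the healthy range. By chronic 72 h it was at 520, 589, 496 and 458 CPM and by chronic 14 d at 574, 749, 461 and 420 CPM. The log2 fold changes of Atp5b were 0.85 ± 0.187 (edgeR adjusted p = 0.00111) at acute 24 h, 0.60 ± 0.175 (adjusted p = 0.015) at acute 72 h, 0.81 ± 0.175 (adjusted p = 0.00111) at chronic 24 h and -0.79 ± 0.175 (adjusted p = 0.00223) from chronic 24 h to chronic 14 d. The acute 72 h call of Atp5b was lost without healthy replicate 2 or acute 72 h replicate 3, and the last call was lost among the shallower libraries alone. Its partner Atp5a1, the alpha subunit, was not called, with 0.05 to 0.54.

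Atp5o, the oligomycin sensitivity subunit of the stalk, had 35.0, 30.6, 22.5 and 36.6 CPM in healthy and 61.1, 59.1, 82.2 and 73.0 CPM in acute 72 h libraries (1.03 ± 0.228, edgeR adjusted p = 0.00203, called in all 18 alternatives). At chronic 24 h Atp5o had 41.6, 42.9, 68.1 and 52.0 CPM, again above the healthy range (0.71 ± 0.228, adjusted p = 0.0197, lost without healthy replicate 3 or chronic 24 h replicate 3). Atp5s, like Sdha, was called lower at acute 24 h, and it was called higher at chronic 72 h. It had 10.5, 8.71, 7.70 and 9.26 CPM in healthy, 3.63, 7.18 and 4.06 CPM in acute 24 h and 17.7, 13.8, 13.5 and 14.6 CPM in chronic 72 h libraries. The log2 fold change of Atp5s was -0.86 ± 0.214 (adjusted p = 0.00309) at acute 24 h, 0.60 ± 0.192 (adjusted p = 0.0303) at chronic 72 h and 0.74 ± 0.195 (adjusted p = 0.0078) from chronic 24 h to chronic 14 d, when it had 13.6, 15.2, 12.1 and 14.7 CPM. The acute 24 h call of Atp5s was lost when only healthy and acute 24 h libraries were fitted. The chronic 72 h call of Atp5s was lost in 8 of 18 alternatives, including those without healthy replicate 2 or 3 or chronic 72 h replicate 1 or 4.

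**Figure D3:**
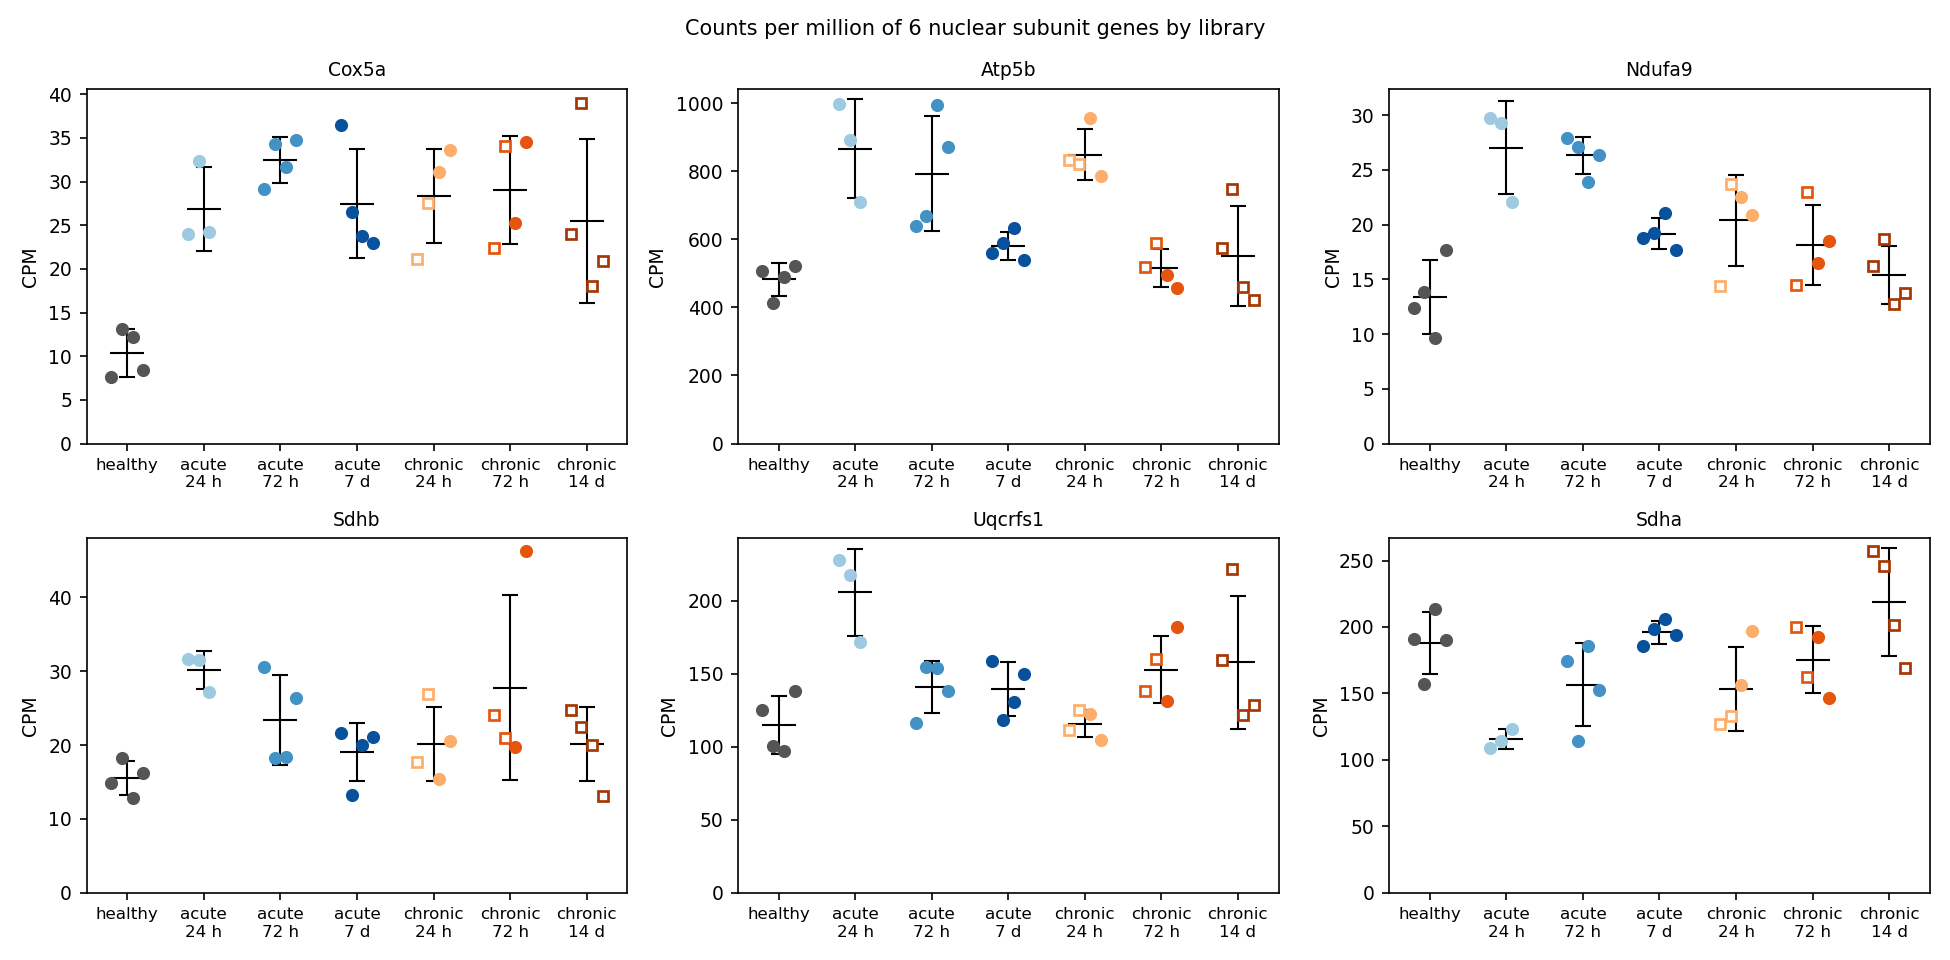
Levels (CPM, y axis) of Cox5a, Atp5b, Ndufa9, Sdhb, Uqcrfs1 and Sdha in each of the 27 libraries by group, with filled circles for the deeper and open squares for the shallower libraries and bars for mean ± SD. Every injured library exceeds the healthy ones for Cox5a, whereas Sdha at acute 24 h (109 to 124 CPM) lies below all healthy values (157 to 214 CPM).

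Of the 13 mitochondrially encoded genes, 1 was called higher than in healthy HSCs at acute 24 h (15.5% of all genes), 2 at acute 72 h (13.1%), 3 at chronic 14 d (5.12%) and 0 in the other 3 groups, with 0 lower in any group. At chronic 14 d DESeq2 called 9. The medians were 0.23, 0.34, 0.07, -0.23, 0.21 and 0.61 in the order acute 24 h, 72 h and 7 d and chronic 24 h, 72 h and 14 d. In the 3 groups with 0 calls, 2 at acute 7 d and 1 at chronic 24 h were lower and 1 at chronic 72 h was higher at an unadjusted p below 0.05, and DESeq2 called 1, 1 and 0. Without healthy replicate 2 or 3 or acute 7 d replicate 1, 1 was called lower at acute 7 d, without healthy replicate 2 or 3 1 was called lower at chronic 24 h, and without healthy replicate 1 or chronic 72 h replicate 1 1 was called higher at chronic 72 h. Without healthy replicate 1 there were 2 calls at acute 24 h. The call at acute 24 h was mt-Nd1, a membrane core subunit of complex I, which had 908, 540, 584 and 800 CPM in healthy and 1183, 1270 and 1087 CPM in acute 24 h libraries, without overlap (0.74 ± 0.222, edgeR adjusted p = 0.0116, lost only with the hepatocyte score).

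From chronic 24 h to chronic 14 d 8 of the 13 mitochondrial genes were called higher and 0 lower, against the 10.1% and 12.9% of all genes given above, and the median log2 fold change was 0.80. Of the 7 mitochondrial subunits of complex I, all in its membrane arm, 5 were called and mt-Nd1 and mt-Nd3 were not. mt-Nd2 had 335, 188, 176 and 352 CPM in healthy libraries, 160, 163, 200 and 175 CPM at chronic 24 h and 351, 577, 535 and 465 CPM at chronic 14 d. mt-Nd4 had 344, 295, 288 and 276 CPM at chronic 24 h and 546, 786, 667 and 541 CPM at chronic 14 d, and mt-Nd5 285, 273, 271 and 293 CPM and 449, 638, 661 and 457 CPM. The chronic 24 h and 14 d ranges did not overlap for any of the 3 genes. Their log2 fold changes were 1.29 ± 0.248 for mt-Nd2 (edgeR adjusted p = 0.000571), 0.91 ± 0.232 for mt-Nd4 (adjusted p = 0.00609) and 0.80 ± 0.217 for mt-Nd5 (adjusted p = 0.00921). mt-Nd6, the only subunit encoded on the other strand, rose by a similar value, 0.93 ± 0.228 (adjusted p = 0.00494). These 4 were called in all 18 alternatives, including the fit to the 8 shallower libraries alone.

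The catalytic subunits of complex IV changed in the same direction. mt-Co1, which holds the oxygen-binding site, had 1303, 1070, 960 and 1046 CPM at chronic 24 h and 1774, 2916, 2479 and 1819 CPM at chronic 14 d (0.87 ± 0.22, edgeR adjusted p = 0.00572). mt-Co3 had 725, 699, 729 and 714 CPM and then 993, 1504, 1416 and 1144 CPM (0.65 ± 0.216, adjusted p = 0.0314, lost without any one chronic 24 h library or without chronic 14 d replicate 2 or 3). mt-Co2 and mt-Nd4l were also called, with 0.63 and 0.86, mt-Co2 not without chronic 24 h replicate 2 or 4 or chronic 14 d replicate 2. The other 5 were not called. mt-Cytb, the mitochondrial subunit of complex III, gave 0.56 (adjusted p = 0.0527), mt-Nd3 0.67, mt-Nd1 0.37, mt-Atp8 0.81 and mt-Atp6 -0.13. Of the 8 calls, 4 remained among the shallower libraries alone and 5 with the hepatocyte score in the model. The summed hepatocyte markers had medians of 1643 CPM at chronic 24 h and 4562 CPM at chronic 14 d.

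Against healthy HSCs the chronic 14 d levels were called for mt-Nd3 (1.03 ± 0.316, edgeR adjusted p = 0.043), mt-Nd5 (0.79 ± 0.217, adjusted p = 0.0245) and mt-Co3 (0.79 ± 0.216, adjusted p = 0.0232). mt-Nd5 had 388, 218, 260 and 266 CPM in healthy libraries and mt-Co3 885, 459, 525 and 718 CPM, below all chronic 14 d values of each gene. The 3 calls became 0 without healthy replicate 2 or 3, without chronic 14 d replicate 2 or 3 and with the hepatocyte score, and 6 without healthy replicate 1. The call of mt-Nd3 held in 7 of 17 alternatives. It was also lost with no filter, with a replicate block and without chronic 14 d replicate 4. With the counts of its copy on chromosome 1 added, described below, mt-Nd3 gave 0.997 (edgeR adjusted p = 0.0586). The acute 72 h calls, mt-Nd5 (0.70) and mt-Co3 (0.63), became 0 without healthy replicate 2 or 3 or acute 72 h replicate 2, 1 without acute 72 h replicate 3 and 6 without healthy replicate 1. At chronic 24 h mt-Nd2 was lower than at acute 24 h, where it had 296, 328 and 255 CPM (-0.76, adjusted p = 0.040), and it was the 1 mitochondrial gene called in that comparison. That call was lost in 9 of 17 alternatives, including those without any one acute 24 h library or without chronic 24 h replicate 1, 2 or 4. The 2 mitochondrial rRNAs, which are not subunits, took 0.337% of counts in healthy, 0.272% in chronic 24 h and 0.484% in chronic 14 d libraries on average.

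**Figure D4:**
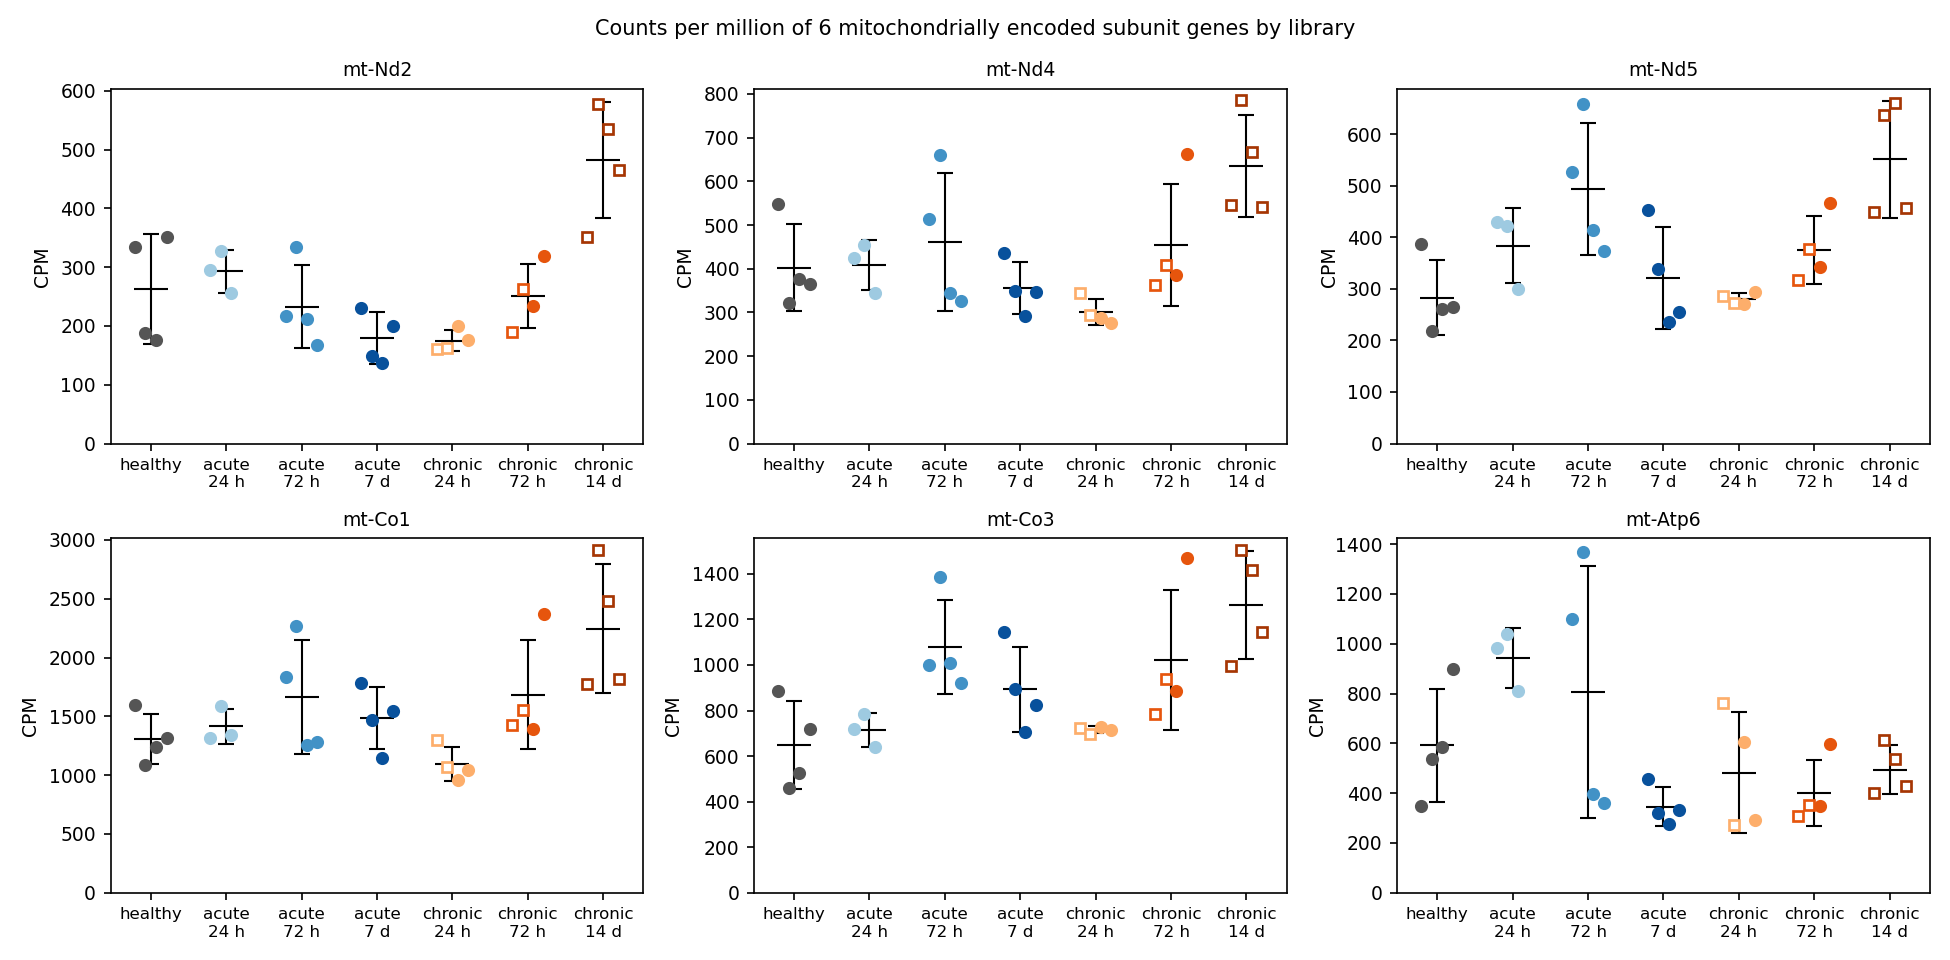
Levels (CPM, y axis) of mt-Nd2, mt-Nd4, mt-Nd5, mt-Co1, mt-Co3 and mt-Atp6 in each library by group, with filled circles for the deeper and open squares for the shallower libraries and bars for mean ± SD. Chronic 14 d libraries lie above all chronic 24 h libraries for mt-Nd2, mt-Nd4, mt-Nd5, mt-Co1 and mt-Co3, and mt-Atp6 varies widely within groups.

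Part of the mitochondrial genome has a copy on chromosome 1, between positions 24611535 and 24616197 (GRCm38), annotated as 6 pseudogenes, and these carried counts. mt-Co3 and its copy Gm28437 are identical over 783 of 783 aligned bases. mt-Co1 and Gm29216 differ at 1 of 483 aligned bases, A1066T, counted from the first base of mt-Co1, and mt-Nd3 and Gm28438 at 1 of 345, T3C. The first 75 aligned bases of Gm29216 that hold the difference, in capitals, and the first 75 bases of the identical pair are shown because reads of 75 bases had to be placed between such copies.
mt-Co1: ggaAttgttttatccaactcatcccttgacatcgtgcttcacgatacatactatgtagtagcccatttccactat
Gm29216: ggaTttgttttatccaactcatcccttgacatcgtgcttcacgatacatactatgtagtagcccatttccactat
mt-Co3: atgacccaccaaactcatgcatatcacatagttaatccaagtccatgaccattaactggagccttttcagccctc
Gm28437: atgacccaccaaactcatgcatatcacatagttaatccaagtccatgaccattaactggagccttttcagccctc
The count of Gm28437 divided by that of mt-Co3 was between 0.999 and 1.00 in all 27 libraries, and Gm28661 against mt-Co2 gave the same range. Gm28438 against mt-Nd3 gave 1.03 to 1.19. For the copies that cover only a part of their gene, Gm29216 against mt-Co1 and Gm28439 against mt-Nd4, the ratio was 0.330 to 0.398 and 0.307 to 0.390. Counts of these genes and of their copies thus moved together, and the text gives the value of the mitochondrial gene alone.

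The pair of mt-Atp6 and Gm10925, identical over 678 bases, stood apart from the other pairs. The ratio of copy to gene was 1.02 to 1.28 in 10 libraries and 2.46 to 2.64 in the other 17, with no value between. The 10 were healthy replicates 2, 3 and 4, all 3 acute 24 h libraries, acute 72 h replicates 1 and 2 and chronic 24 h replicates 1 and 3. The counts of mt-Atp6 followed this division, with 347 CPM in healthy replicate 1 and 537, 586 and 898 CPM in the other healthy libraries, and with 762, 272, 606 and 291 CPM at chronic 24 h. With the counts of each copy added to its gene, the log2 fold change of mt-Atp6 went from -0.89 to -0.22 at acute 7 d, from -0.44 to 0.22 at chronic 14 d and from -0.13 to 0.36 between chronic 14 d and chronic 24 h. None of these values of mt-Atp6 was called with the copies added (edgeR adjusted p = 0.596, 0.67 and 0.361). With copies added, the mitochondrial share was 0.801% ± 0.17 in healthy, 0.758% ± 0.0589 in chronic 24 h and 1.35% ± 0.25 in chronic 14 d libraries (SD, n = 4 each), the same order as without them.

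**Figure D5:**
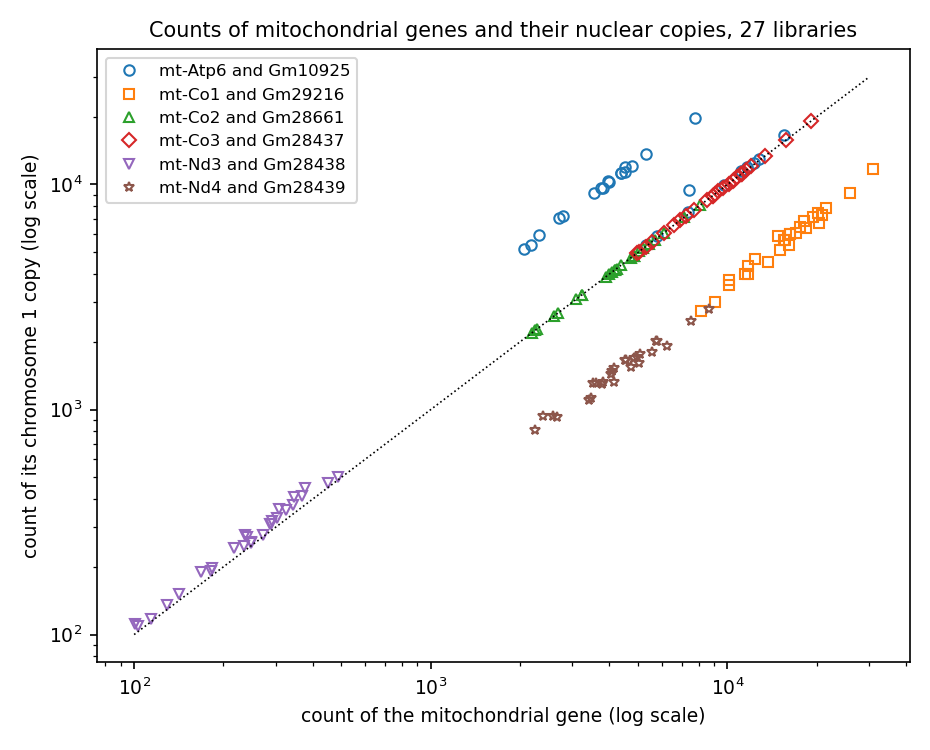
Count of each mitochondrial gene (x axis, log scale) against the count of its copy on chromosome 1 (y axis, log scale) in the 27 libraries, with 1 symbol for each of the 6 pairs and a dotted line where both are equal. mt-Co2 and mt-Co3 lie on the line, and mt-Atp6 forms 2 bands, 10 libraries with a ratio of 1.02 to 1.28 and 17 with 2.46 to 2.64.

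Promoters of nuclear subunits are known for binding nuclear respiratory factor 1 (NRF1) and for YY1 elements near the start site. In the RefSeq promoter windows of GRCm38.p6, from 250 bases before to 50 after a start, 68 of the 83 nuclear genes matched with 73 windows. The letters GCGCATGC, part of the NRF1 element, were found on either strand in 13.7% of these windows and in 2.71% of all 32851, and AAGATGGC, a YY1 element, in 13.7% and 2.75%. CCGGAAGT, an ETS element, was found in 6.85% and 3.89%, TATAAA in 10.96% and 13.6% and CCAAT in 42.5% and 37.4%. The 3 windows below belong to genes whose levels are given above and differ in these letters, which are in capitals.
Sdhb: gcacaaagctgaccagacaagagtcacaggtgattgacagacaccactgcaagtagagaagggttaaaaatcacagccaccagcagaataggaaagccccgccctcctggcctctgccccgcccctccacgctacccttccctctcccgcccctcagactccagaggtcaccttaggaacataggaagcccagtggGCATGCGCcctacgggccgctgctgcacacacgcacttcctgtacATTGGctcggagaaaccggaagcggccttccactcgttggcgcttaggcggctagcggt
Ndufa9: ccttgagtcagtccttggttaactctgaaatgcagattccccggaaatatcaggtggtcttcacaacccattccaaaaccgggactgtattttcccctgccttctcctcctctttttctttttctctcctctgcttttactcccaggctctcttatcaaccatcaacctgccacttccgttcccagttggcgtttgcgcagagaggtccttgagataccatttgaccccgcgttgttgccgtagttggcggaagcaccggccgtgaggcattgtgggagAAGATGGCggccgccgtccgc
Cox5a: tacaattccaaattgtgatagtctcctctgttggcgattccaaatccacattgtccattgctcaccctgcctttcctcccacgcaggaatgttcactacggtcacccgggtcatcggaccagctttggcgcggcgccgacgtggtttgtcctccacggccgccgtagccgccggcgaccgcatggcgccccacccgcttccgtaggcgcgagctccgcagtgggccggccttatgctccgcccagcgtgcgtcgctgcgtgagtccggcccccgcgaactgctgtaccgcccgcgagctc
The window of Sdhb (chr4:140961021-140961320, plus strand) held the NRF1 letters and CCAAT, both on the reverse strand, and that of Ndufa9 (chr6:126849095-126849394, minus strand) the YY1 letters. The window of Cox5a (chr9:57520982-57521281, plus strand) held none of the 5. The NRF1 letters were also in the windows of Uqcrc1, Cox6a1 and Ndufa8 and the YY1 letters in those of Ndufs4, Ndufs6 and Atp5f1. A match of letters was not tested for binding.

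Genes around the complexes were read from lists by function. The shares of all genes called higher were 15.5%, 13.1% and 13.1% at acute 24 h, 72 h and 7 d and 17.1%, 11% and 5.12% at chronic 24 h, 72 h and 14 d, and the shares called lower were 18.1%, 8.81%, 10.6%, 14%, 9% and 3.49% in that order. Of 77 tested proteins of the mitochondrial ribosome, which translates the 13 mitochondrial genes, 25 were called higher and 0 lower at acute 24 h (median 0.53), 7 at acute 72 h, 3 at acute 7 d, 4 at chronic 24 h with 3 lower, 1 at chronic 72 h with 1 lower and 0 at chronic 14 d. Between chronic and acute 24 h 0 were called higher and 16 lower, against 14% and 7.32% of all genes. Of 75 proteins of the cytosolic ribosome 43 were called higher at acute 24 h (median 1.40), 25 at acute 72 h, 15 at acute 7 d, 33 at chronic 24 h, 19 at chronic 72 h and 1 at chronic 14 d, with 1 lower at chronic 14 d alone. Both ribosomal lists thus had their highest counts at acute 24 h, as the nuclear subunits did.

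Assembly factors build the complexes and are not part of them. At acute 24 h, when 15.5% of all genes were called higher and 18.1% lower, 1 was called higher and 2 lower of 15 for complex I, 2 and 1 of 4 for complex II, 0 and 1 of 5 for complex III, 3 and 0 of 18 for complex IV and 0 of 3 for complex V. The calls for complex IV were Cox18 (0.68), which inserts Cox2, Cox19 (0.64) and Coa7 (0.56), and that for complex III was Ttc19 (-0.70), which acts on the Rieske protein. In the list of cytochrome c and its lyase, Cyc1, the haem subunit of complex III that the symbol rule did not take, was called at acute 24 h with 1.21 and, with -0.80, between chronic and acute 24 h, as Uqcrfs1 was.

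The citric acid cycle, which feeds complexes I and II, had 9 of 19 genes called higher and 1 lower at acute 24 h (median 0.31, background 15.5% and 18.1%), 5 and 0 at acute 72 h, 3 and 0 at chronic 24 h, and 0 higher at the other times with 1 lower at acute 7 d and 2 lower at chronic 72 h. Mdh2 (1.08), Idh3a (1.07) and Dlst (0.75) rose at acute 24 h, and the carboxylase Pcx, which refills the cycle, fell by 2.26 on the log2 scale. Glycolysis had 11 of 23 called higher and 2 lower at acute 24 h (median 0.72), 11 and 1 at chronic 24 h (0.82), 7 and 1 at acute 72 h, 8 and 2 at acute 7 d, 5 and 3 at chronic 72 h, 4 and 1 at chronic 14 d, and 0 and 12 from chronic 24 h to chronic 14 d (-0.86), against 10.1% and 12.9% of all genes. In this last comparison glycolysis and the mitochondrially encoded subunits, with medians of -0.86 and 0.80, had opposite signs.

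Carriers of the inner membrane rose with the nuclear subunits at acute 24 h, when 6 of 8 in the list were called higher, against 15.5% of all genes. They included Slc25a5 (1.90), an ADP/ATP exchanger, Slc25a3 (1.13), the phosphate carrier, and Ucp2 (3.38), an uncoupling protein family member. Ucp2 was called higher in all 6 groups, with 3.38, 1.61, 3.03, 2.82, 1.91 and 1.40 in the order of the groups above. Of 6 genes of the switch between isoforms under low oxygen, 0, 0, 2, 0, 1 and 1 were called higher and 1, 2, 2, 2, 2 and 2 lower. Ndufa4l2, a relative of Ndufa4, was called lower in all 6 groups, with -1.02, -0.73, -0.82, -2.03, -1.29 and -1.07. Of 19 regulators of mitochondrial biogenesis, 1 was called higher at acute 24 h (Esrra, 1.3) and 2 lower (Ppargc1b, -1.21, and Gabpb2, -0.76), and 4 and 4 at chronic 72 h, with a median between -0.31 and 0.16 over the 6 groups.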

How the data were processed

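Bulk RNA of sorted mouse HSCs was measured in 27 libraries of 7 groups, 1 library per column, as single-end reads of 75 bases. According to the study's methods and the submitters' processing notes, FastQC guided the trimming, STAR placed the reads on GRCm38.p6 and StringTie followed. What the authors deposited is a table of unnormalized counts per Ensembl gene. How these counts were drawn, the strand setting, the annotation release and tool versions are not given in the sources used here. The study tested its genes with DESeq2.

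Symbols, positions and exon lengths came from GENCODE M21 (53274 of 53379 IDs) and promoters from RefSeq. The fit was made with edgeR 4.0.16 (R 4.3.3, limma 3.58.1) after filterByExpr by group (18758 genes) and TMM scaling, as 1 robust quasi-likelihood model over all 27 libraries, with 8 contrasts between groups. Calls needed a Benjamini-Hochberg adjusted p below 0.05 over all genes, and SEs follow from the test statistic. CPM are taken on a library's total count, and CPM per kb divide by exon length. Steps were tested on simulated data. Summaries used Python 3.11.15, pandas 2.3.3, Biopython 1.88 and matplotlib 3.10.9. Totals were 6314801 to 13052838 counts, so that 3 counts are 0.230 to 0.475 CPM, and such floors cover counting error only. Nothing in the labels says how many mice gave a library, so p-values measure the spread between these libraries.

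The members, gene lists and alternatives were chosen with earlier results of these data known. Genes were named if mitochondrially encoded, if among the 3 highest or lowest log2 fold changes of nuclear subunits called in a comparison (mean of at least 3 CPM), if an isoform pair or if an anchor subunit of a complex, and in each list up to 4 called genes. Cox6b2, Uqcrh, Cox7b at other times, Ndufa8, Ucp2 and Ndufa4l2 at all times were added after their values were seen. Of the genes the rule named, 1 is not reported here. Alternatives were a change above 2-fold, DESeq2 1.42.0, its size factors, library size alone, no filter, the compared groups alone, a replicate block and each library left out. Added after seeing the data were a depth term, the deeper or shallower libraries alone, a hepatocyte marker score, subunits without isolated zeros and copies added to mitochondrial genes. The replicate numbers were not used as a pairing in the main fit.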

Additional observations from a re-analysis of the deposited data

Results flagged for a closer look

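Of 228 sets of 4 libraries tested over 36 named genes and the 2 shares of all counts, 13 held a library standing apart from the other 3 (Dixon's ratio above its 95% critical value), and chance gives about 1 in 20. Chronic 72 h replicate 4 was high in 6 of them. It had 2371 CPM of mt-Co1 (others 1394 to 1550), 598.6 CPM of mt-Atp6 (307 to 354), 662.6 CPM of mt-Nd4 (362 to 408), 1847 CPM of mt-Cytb (1008 to 1094) and 46.35 CPM of Sdhb (19.7 to 24.1). It also had 6.83 CPM of Ndufa1, which was at 0 in the others.

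Acute 72 h replicate 4 had 12.5 CPM of Ndufa1 with 0 in the others. Acute 7 d replicate 4 had 13.9 CPM of Ndufc1 (others 0.515 to 1.97) and 20.9 CPM of Ndufb7 (5.28 to 7.71). mt-Atp8 stood at 130 CPM in chronic 24 h replicate 3 (49.4 to 58.4) and at 48.8 CPM in chronic 72 h replicate 1 (104 to 114). Ndufs1 stood at 70.65 CPM in healthy replicate 4 (49.1 to 52.5) and at 65.55 CPM in chronic 14 d replicate 1 (70.2 to 70.6).

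Between chronic 14 d and chronic 24 h the contrast itself was called for 12 named genes (edgeR, adjusted p below 0.05): mt-Nd2 by 1.295 on the log2 scale, mt-Nd6 0.925, mt-Nd4 0.91, mt-Co1 0.87, mt-Nd4l 0.86, mt-Nd5 0.80, mt-Co3 0.65, mt-Co2 0.63, Atp5s 0.74, Cox7a2l 0.45, Ndufa9 -0.57 and Atp5b -0.79. The call of Ndufa9 held in 4 of 18 alternatives and was lost without chronic 24 h replicate 2, 3 or 4 or chronic 14 d replicate 1, 3 or 4. Between chronic and acute 24 h it was called for Uqcrfs1 (-0.84) and mt-Nd2 (-0.76). The causes of these differences were not tested.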

How the results depend on the processing

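Counts of called subunits are given per setting. The medians of the nuclear subunits and the shares moved by less than 1 SD between libraries in all 78 and 68 settings. Of these settings, 62 for the medians and 27 for each share left out 1 library. Leaving out 1 of 3 or 4 libraries cannot move a mean share by 1 SD, so stability was not tested this way. The nuclear median then ran from -0.02 to 0.25 for chronic 14 d against healthy. From chronic 24 h to 14 d it ran from -0.23 to 0.05. Fits by DESeq2, with depth or with the hepatocyte score were not among the settings for the medians. A change above 2-fold left nuclear counts of 8 (acute 24 h), 5 (acute 72 h), 1 (acute 7 d), 3 (chronic 24 h), 3 (chronic 72 h), 0 (chronic 14 d against chronic 24 h) and 1 (chronic against acute 24 h), and mitochondrial counts of 0 at acute 24 h and 72 h, 1 at chronic 14 d, 1 from chronic 24 h to 14 d and 0 between chronic and acute 24 h. Scaling by library size alone moved the all-gene median by at most 0.17 (chronic 14 d against healthy or chronic 24 h) and gave nuclear counts of 20 at acute 72 h, 7 at acute 7 d and 3 at chronic 14 d, and mitochondrial counts of 6 at acute 72 h, 1 at chronic 72 h and 10 at chronic 14 d. Without a filter on low counts there were 1 at acute 7 d, 4 at chronic 24 h, 3 at chronic 72 h and 2 from chronic 24 h to 14 d, and 1 mitochondrial gene at acute 72 h. Fits to the compared groups alone gave nuclear counts of 2 at chronic 72 h and 0 at chronic 14 d, and mitochondrial counts of 0 at acute 72 h, 0 at chronic 14 d and 3 between chronic and acute 24 h. DESeq2 gave nuclear counts of 10 at chronic 72 h and 2 at chronic 14 d, and mitochondrial counts of 1 at acute 7 d, 1 at chronic 24 h and 9 at chronic 14 d.

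With depth as a term the nuclear count from chronic 24 h to 14 d was 2, and mitochondrial counts were 1 at acute 7 d, 1 at chronic 72 h and 0 between chronic and acute 24 h. The deeper libraries alone gave mitochondrial counts of 1 at acute 72 h, 1 at chronic 72 h and 0 between chronic and acute 24 h, and the shallower alone 4 from chronic 24 h to 14 d. With the hepatocyte score nuclear counts were 11 at acute 24 h, 1 at acute 7 d, 2 at chronic 72 h, 0 at chronic 14 d and 2 from chronic 24 h to 14 d, and mitochondrial counts 0 at acute 24 h, 0 at chronic 14 d, 5 from chronic 24 h to 14 d and 0 between chronic and acute 24 h. The causes were not tested.

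Leaving out each library in turn gave nuclear ranges of 15 to 21, 4 to 14 and 1 to 8 (acute 24 h, 72 h, 7 d), 3 to 8, 2 to 8 and 1 to 2 (chronic 24 h, 72 h, 14 d), 2 to 5 (chronic 24 h to 14 d) and 2 to 3 (chronic against acute 24 h), and mitochondrial ranges of 1 to 2, 0 to 6, 0 to 1, 0 to 1, 0 to 1, 0 to 6, 6 to 9 and 0 to 1 in the same order.

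With a replicate block nuclear counts were 22, 10, 3, 7, 6, 1, 4 and 3 and mitochondrial counts 1, 2, 0, 0, 0, 2, 8 and 1 in that order. Libraries of the same number correlated weakly, between -0.17 and 0.15. For chronic 14 d and chronic 24 h these values were 0.02 to 0.15, with a mean of 0.08 against -0.03 for libraries of other numbers. Correlations this weak cannot show whether libraries of a number were handled together. A group of 3 or 4 libraries and 6314801 to 13052838 counts limit what could be called for low subunits.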
